A study of Homo sapiens with 2 samples.

Results

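The cells described here were OVCAR5 ovarian carcinoma cells grown as tumours, whose transcripts carried 3 or more UMIs (unique molecular identifiers, each standing for 1 captured RNA molecule) of 5 oxygen-responsive genes: NDRG1, ADM, CA9, ANKRD37 and VEGFA. They are called marker-positive below. They were compared with cells of the same 5 tumour populations that had 0 UMIs of those genes, called marker-negative. Both classes were chosen by the measured UMIs of the 5 marker genes, so the marker levels are a description and were left out of every other comparison. Of 9083 barcodes, 2994 passed the cell filter and belonged to 1 of 13 populations, 907 of them to the 5 populations studied, and 70 of those were marker-positive and 548 marker-negative. The other 289 cells had 1 or 2 marker UMIs and belonged to neither class.

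Cells sense low oxygen through prolyl hydroxylases of the EGLN family, which mark the alpha subunits of the hypoxia-inducible factors (HIF) for destruction while oxygen is present. When oxygen runs short the subunits persist, pair with ARNT and bind short promoter and enhancer sequences, and genes for glucose uptake, glycolysis, lactate export, pH control, blood vessel growth and collagen modification are transcribed. Solid tumours commonly contain such cells at a distance from perfused vessels.

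The line carried a reporter that senses IFNγ, and the sorted cells were CFP+ bystander tumour cells from tumours in NSG-B2m-/- mice, a host strain without mature lymphocytes and without the β2-microglobulin light chain of MHC class I. The pool held 13 tumours: 3 injected with TNFα at 10 ng/ml and taken at 6 h, 2 injected with IFNγ at 100 ng/ml together with TNFα at 10 ng/ml and taken at 6 h, 2 injected with IFNγ at 100 ng/ml and taken at 24 h, 1 injected with the same IFNγ dose and taken at 48 h, and unexposed tumours at 6 h (2), 24 h (2) and 48 h (1). Cells were tagged by pairs of hashtag antibodies and sequenced as 1 library, and the labels used here do not tie a hashtag pair to a tumour. The treatment fields of the gene and hashtag libraries each name a single condition that is at odds with the pool's description. The library is therefore 1 sample, no p-value can be given, and the spread over the 5 populations is the error shown, with intervals that cover counting error only.

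The populations were those tagged HTO3+HTO5, HTO3+HTO7, HTO3+HTO9, HTO4+HTO6 and HTO4+HTO7, and values for the 5 populations are given in this order throughout. They are called quiet because of measured levels: a list of 22 genes of the NF-kB and TNF response summed to between 1342 and 2015 UMIs per 1000000 (CPM) in them, against 2131 to 13258 CPM in the other 8 populations. The interferon response list summed to between 13920 and 21595 CPM in the quiet populations and between 21000 and 55979 CPM in the others, so the ranges of that list overlapped. Neither range is a finding, since the populations had been picked with such levels known.

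Depth was similar over all 5 populations together and differed within some of them. The median of marker-positive cells was 8604 UMIs and 2972 genes, against 8798 UMIs and 2928 genes in marker-negative cells, and summed depth was 761976 and 5208979 UMIs. By population the medians were 8214, 10532, 6952, 9039 and 10721 UMIs in marker-positive cells and 8698, 8629, 8188, 9705 and 8914 in marker-negative cells, so marker-positive cells were deeper in both HTO7 populations and shallower in the other 3. Mitochondrially encoded genes took a median of 12.8% of UMIs in marker-positive and 15.2% in marker-negative cells, and the widest gap was in HTO4+HTO7, at 8.61% and 14.9%. The part of depth and mitochondrial share in the results was not tested beyond the alternatives named. The share of cells with 3 or more UMIs of 8 mitotic genes was 21.4% (95% Clopper-Pearson interval 12.5 to 32.9) and 21.5% (18.2 to 25.2). Tumour identity was alike: 69 of 70 marker-positive and 533 of 548 marker-negative cells had 3 or more of 10 epithelial markers, whose summed level per population ran from 4647 to 6449 CPM and from 5529 to 7604 CPM. Defining genes of human fibroblasts (LUM, FAP, THY1), macrophages (CD163, FCGR3A, MARCO), T cells (CD3D, CD3E, CD3G) and red cells (HBB, HBA1) were at 0 UMIs in both classes, and the cells with 3 or more markers of a type other than epithelial were marker-negative, 4 for the macrophage and 1 for the fibroblast list. The 10 macrophage markers summed to 69.6 CPM in marker-positive and 47.8 CPM in marker-negative cells, most of it CD68, a lysosomal protein, at 52.5 and 29.6 CPM, with LYZ at 8 and 39 UMIs and CD14 at 3 and 50. The fibroblast list summed to 9.19 and 15.4 CPM, with COL1A1 at 3 and 28 UMIs. Mouse stroma was not looked for.

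The marker-positive cells made up 12.1%, 6.47%, 14.8%, 6.47% and 3.24% of the 5 populations, from 17, 9, 22, 13 and 9 cells. Over all 5 the share was 7.72% (6.07 to 9.65), against 13.2% (11.7 to 14.7) in the other 8 populations. These intervals do not cover the spread over populations. Single populations among the other 8 ran from 3.23% in HTO3+HTO6 to 23.9% in HTO2+HTO7 and HTO4+HTO8, so the ranges overlapped. HTO2+HTO5, HTO2+HTO8 and HTO2+HTO9 lay within the quiet range, at 3.75%, 3.78% and 9.54%. HTO4+HTO7, the quiet population with the lowest share, also had the lowest summed marker level of the 5, 51.9 CPM (43.9 to 60.8). HTO3+HTO9 had the highest of the 5, 126 CPM (108 to 146). After every cell was thinned to 4000 UMIs, which left out 34 shallower cells, 2.63% of 873 cells (1.68 to 3.93) had 3 or more marker UMIs, as fewer UMIs per cell must lower this share. The class was cut from a count and is a range of it. Just outside the threshold lay 75 cells with 2 marker UMIs, and just inside it 28 cells with 3, with medians of 8590 and 8872 UMIs.

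The markers themselves contributed unequally. ADM, a secreted vasodilator peptide, was found in 51 of the 70 cells with 126 UMIs, and NDRG1, a cytosolic stress protein, in 49 cells with 118 UMIs. VEGFA, the main blood vessel growth factor, gave 55 UMIs in 33 cells, CA9, a surface carbonic anhydrase that acidifies the outside of the cell, 34 UMIs in 25 cells, and ANKRD37, an ankyrin repeat protein, 14 UMIs in 10 cells. ADM and NDRG1 thus gave 36.3% and 34.0% of the marker UMIs, and 63 of the 70 cells had at least 2 different markers. CA9 was at 0 UMIs in the 9 marker-positive cells of HTO4+HTO7.

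To describe each marker without its own part in the choice, cells were classed again by the other 4 markers. The ratios were matched on population, while the intervals beside them are counting intervals of the unmatched ratio pooled over populations. NDRG1 was then 10.7 times as high in the positive cells (counting interval 7.34 to 15.2), at 175, 59.5, 124, 219 and 18.3 CPM against 12.9, 7.05, 12.6, 10.5 and 13.2 CPM. The NDRG1 ranges did not overlap, and its difference was smallest in HTO4+HTO7. ADM was 6.78 times as high (4.54 to 8.70), CA9 7.25 times (4.49 to 17.9) and VEGFA 4.14 times (2.54 to 6.41). ADM and CA9 were each higher in 4 of 5 populations, with 0 UMIs of either in HTO4+HTO7, and VEGFA was higher in 5 of 5. ANKRD37 had 4 UMIs in the positive cells and a ratio of 2.00 (0.549 to 7.48), which this depth cannot tell from 1. The markers were picked as a set with results of these cells known, so these ratios are a description.

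Over all other genes, 6495 had 100 UMIs or more in the 2 classes together. For each, levels were compared within every population and combined into 1 population-matched ratio of marker-positive to marker-negative cells. A gene was called higher when that ratio was 1.5 or more and the level was higher in 5 of 5 populations, and called lower by the mirror rule. This is a rule of size and not a test. It called 83 genes higher, which is 1.28% of those measured, and 153 lower, which is 2.36%. The median log2 ratio of all measured genes was -0.01, and 3191 of the 6495 had a ratio above 1. Genes with few UMIs were called more often: 2.04% higher and 3.56% lower among those with 100 UMIs or more but under 200, against 0.606% and 1.05% among those with 500 or more. Genes of the first kind had a median of 18 UMIs in the marker-positive class, so single calls among them carry wide counting intervals.

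Among called genes with 200 UMIs or more, UCA1 and EGLN3 had the highest ratios, 3.49 and 3.48. EGLN3 is a HIF prolyl hydroxylase and itself a HIF target that feeds back on the pathway. Its gene lies at chr14:33924231-34462774 on the minus strand (GRCh38). EGLN3 stood at 175, 79.4, 205, 217 and 47.2 CPM in marker-positive cells and at 49.5, 45.5, 48.6, 40.6 and 41.3 CPM in marker-negative cells. The EGLN3 difference was smallest in HTO4+HTO7, with a ratio of 1.14 (log2 ratio 0.19), and next smallest in HTO3+HTO7 (log2 ratio 0.80). It was wide in the remaining populations, with log2 ratios from 1.82 to 2.42. UCA1, a long noncoding RNA described in hypoxic and drug-resistant carcinoma cells, was at 115, 59.5, 112, 70.2 and 142 CPM against 25.4, 24.0, 27.8, 38.2 and 27.0 CPM. The UCA1 ranges did not overlap, and its ratio ran from 1.84 to 5.25 over the populations.

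DDIT4, also known as REDD1, restrains mTOR complex 1 when oxygen or nutrients are short. DDIT4 (chr10:72273920-72276036, plus strand) was at 235, 159, 246, 153 and 255 CPM in marker-positive cells and at 135, 82.1, 109.8, 64.0 and 47.3 CPM in marker-negative cells, a matched ratio of 2.31. All 5 marker-positive DDIT4 levels lay above all 5 marker-negative ones. SLCO4A1, an organic anion transporter, had a ratio of 2.45, and SEMA4B, a membrane semaphorin, 2.13, both with every population on the same side. BNIP3L, a mitophagy receptor of the outer mitochondrial membrane, had 53 UMIs in the marker-positive cells and a ratio of 1.98. ERO1A, the oxidase that forms disulphide bonds in the endoplasmic reticulum, had a ratio of 1.84.

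**Figure D1:**
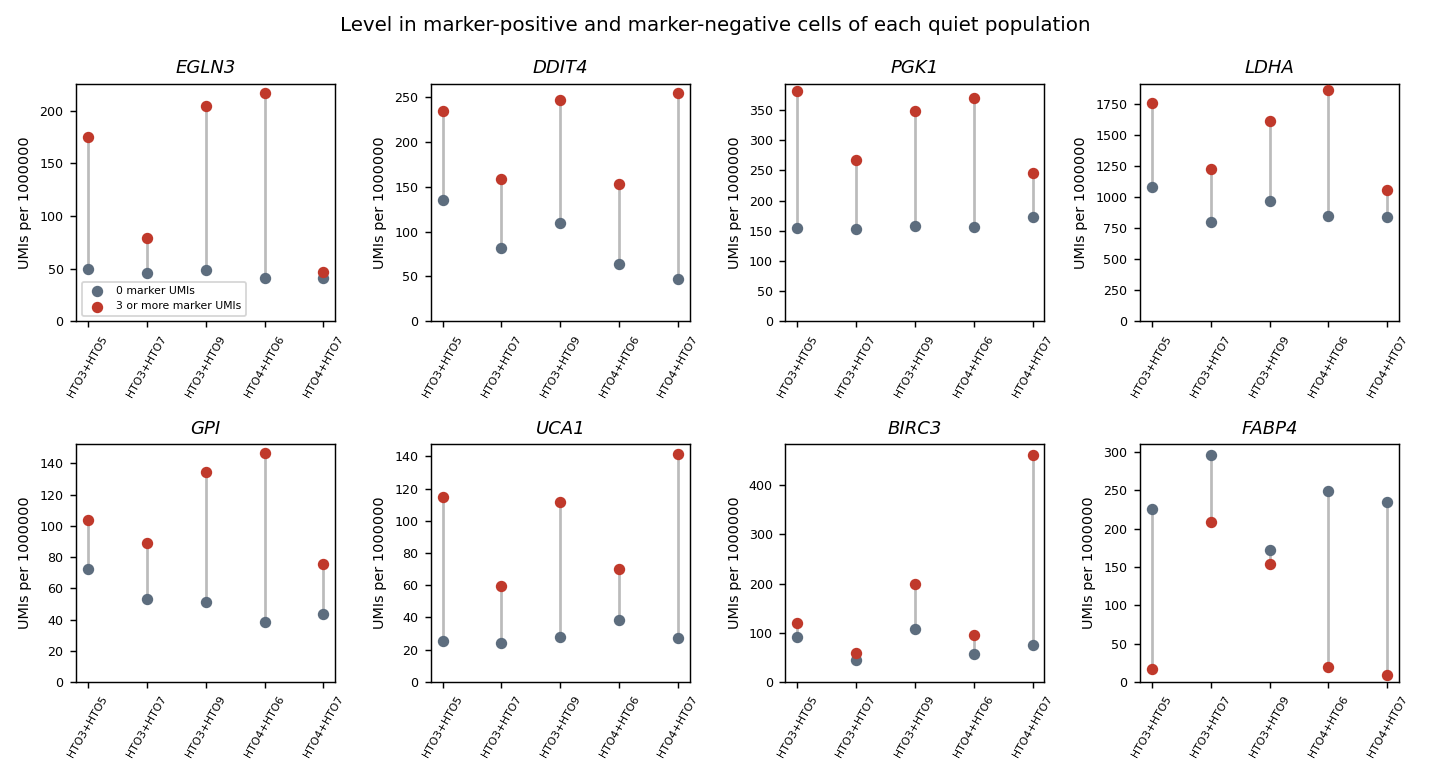
Levels (UMIs per 1000000, linear axes from 0) of 8 genes in the 5 quiet populations, with marker-positive cells in red, marker-negative cells in grey and a line joining the classes of 1 population. EGLN3, DDIT4, PGK1, LDHA, GPI, UCA1 and BIRC3 were higher in marker-positive cells of all 5 populations, with BIRC3 widest in HTO4+HTO7 (462 against 74.9 CPM), and FABP4 was lower in all 5.

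A pair of noncoding transcripts with fewer than 200 UMIs had still higher ratios and were singled out after their values were seen. MIR210HG, the host transcript of the hypoxia-responsive miR-210, had 48 UMIs in marker-positive and 69 in marker-negative cells, a ratio of 4.66 that ran from 1.02 in HTO3+HTO5 to 13.3 in HTO4+HTO6. LUCAT1 had 53 and 82 UMIs and a ratio of 4.64, from 1.69 to 7.11 over the populations.

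Sugar metabolism was the list with the most called members. Of 23 listed genes of glucose uptake and glycolysis 14 were measured, 4 were called higher and 0 lower, and 13 of the 14 had a ratio above 1. Beside this and every list below stand the shares over all 6495 measured genes. Of these 1.28% were called higher, 2.36% were called lower and 3191 genes had a ratio above 1. The median log2 ratio of the list was 0.54, and in the single populations it was 0.46, 0.33, 0.77, 0.72 and 0.25, against -0.09, -0.11, -0.01, -0.04 and 0.04 for all measured genes. The called members were SLC2A1, the main glucose importer (ratio 1.68), GPI (2.19) and PGK1 (2.11), enzymes early and late in glycolysis, and LDHA (1.69), which turns pyruvate into lactate.

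PGK1 (chrX, GRCh38) stood at 382, 268, 349, 370.2 and 245 CPM in marker-positive cells and at 154, 153, 158, 157 and 172 CPM in marker-negative cells. The marker-negative PGK1 levels lay within 20 CPM of each other, and every marker-positive level exceeded them. LDHA stood at 1764, 1230, 1618, 1864 and 1057 CPM against 1082, 801, 966, 850.5 and 843 CPM. The LDHA ranges overlapped between populations, as HTO4+HTO7 positive cells lay below HTO3+HTO5 negative cells, while each population's own difference had the same sign. GPI was at 104, 89.3, 135, 147 and 75.5 CPM against 72.3, 53.1, 51.4, 38.2 and 43.7 CPM. ENO1 (ratio 1.48) was higher in 5 of 5 populations and missed the size of 1.5, while GAPDH (1.30) and PKM (1.12) were each higher in 4 of 5. Among listed genes of glycolysis that were too rare to be measured, SLC2A3 had 6 and 7 UMIs and PFKFB4 7 and 17.

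The difference in sugar metabolism was spread over the marker-positive cells and was not carried by 3 of them. The summed glycolysis list took a median of 9947 CPM per marker-positive cell, with quartiles of 6983 and 14054. In marker-negative cells the median was 5953 CPM, with quartiles of 4592 and 7929. These medians and quartiles pool the populations without matching. Of the 70 marker-positive cells 57 lay above the marker-negative median of their own population, which is 81.4%. The 3 marker-positive cells with the highest glycolysis level held 8.49% of the class's list UMIs. The list median was smaller under a pair of alternatives, 0.29 with a minimum of 2 marker UMIs and 0.18 under a stricter cell filter. That filter asked for 1000 genes and at most 10% mitochondrial UMIs and left 17 marker-positive and 45 marker-negative cells.

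**Figure D2:**
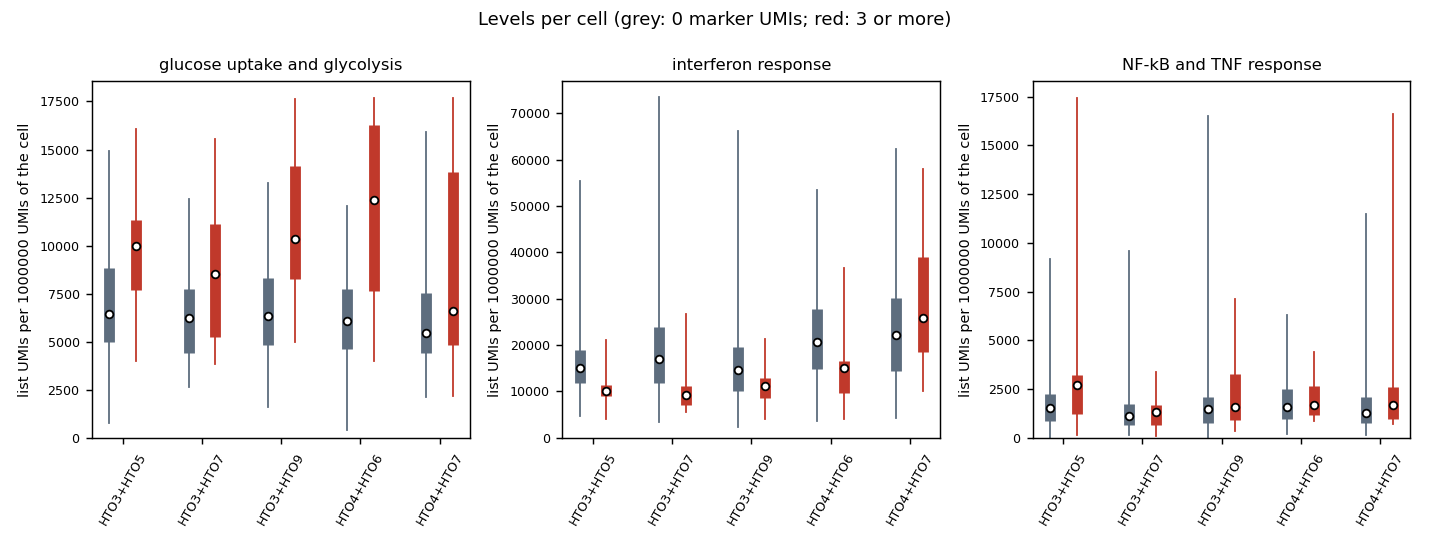
Summed level per cell of 3 gene lists (list UMIs per 1000000 UMIs of the cell) in each quiet population, grey for marker-negative and red for marker-positive cells, with white points at medians, bars over the quartiles and lines from the lowest to the highest cell. Glycolysis medians were higher in marker-positive cells of all 5 populations, interferon medians were lower in 4 and higher in HTO4+HTO7, and NF-kB medians were higher in all 5, by most in HTO3+HTO5 (2686 against 1505), while single cells reached up to 17422.

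Letters of the classical HIF core, ACGTG on either strand (CACGT when read on the other strand, and CACGTG where both overlap), were looked up in RefSeq promoter sequences of GRCh38.p14 reaching from 250 bases before to 50 after the start site. The windows of 30 bases below are shown because they belong to markers and to the called genes of sugar metabolism and stress that hold the core. They run 5′ to 3′ along the gene, and capitals mark the core. CA9 is at chr9:35673897-35673926, ANKRD37 at chr4:185396673-185396702, DDIT4 at chr10:72273786-72273815, GPI at chr19:34364817-34364846, PGK1 at chrX:78104042-78104071, LDHA at chr11:18394468-18394497 and ERO1A at chr14:52695656-52695685 on the minus strand, with the others on the plus strand.
CA9: ctcgtttccaatgCACGTacagcccgtaca
ANKRD37: gggctcCACGTGccagtgtttgtgtACGTG
DDIT4: gagaacgttgcttACGTGcgcccggagtcc
GPI: aacactgcctgtaACGTGgaaggtgttcga
PGK1: ccggACGTGacaaacggaagccgCACGTct
LDHA: ccgactcaCACGTGggttcccgCACGTccg
ERO1A: gcgggcgccgcggCACGTccacaggctggg
The LDHA promoter held the core 5 times over its 300 bases, and those of PGK1 and ANKRD37 3 times each, counting both strands. A CACGTG counts on each strand, so these are not numbers of separate sites. The table matched 72 of the 83 genes called higher, and 31.9% of them held the core, against 28.6% of the measured genes, 27.9% of those called lower and 21.6% of all 27305 promoters. For GCGTG, the other form of the core, the shares ran the other way, 48.6% of the genes called higher against 52.8% of those measured, and for either form they were 61.1% and 65.7%. EGLN3, SLC2A1, P4HA2, SLC16A3 and ADM had no ACGTG in their promoter sequences. For NDRG1, VEGFA, UCA1, SLCO4A1, APOL1, BNIP3L and GRPEL1 no promoter sequence was at hand, so the core was not looked up.

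The other lists of the oxygen response held fewer called genes. Of 6 measured genes that divert pyruvate, export lactate or control pH, SLC16A3, the lactate exporter MCT4, was called higher at 224, 119, 246, 223 and 198 CPM against 149, 96.0, 157, 140 and 131 CPM, a ratio of 1.52. CA12, a carbonic anhydrase related to CA9, had a higher ratio of 1.72 and failed the rule because its sign differed between populations (ratios from 0.558 to 3.59). In the list of oxygen sensing and HIF feedback EGLN3 was the called gene among 6 measured. HIF1A, the alpha subunit that is regulated mainly as protein, had a ratio of 0.927 (pooled counting interval 0.675 to 1.08), and EGLN2 a ratio of 1.25 (0.899 to 1.76). The list of 2-oxoglutarate demethylases, enzymes that also use oxygen, had 4 measured members, none of them called, and a median log2 ratio of 0.21.

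Genes that shape collagen had a median log2 ratio of 0.58 over 8 measured members. P4HA2, a collagen prolyl hydroxylase, was called higher at 115, 109.1, 135, 160 and 132 CPM against 93.7, 70.8, 107, 69.4 and 69.5 CPM, a ratio of 1.55. P4HA1, its relative, had a ratio of 2.50 and was higher in 4 of 5 populations. PLOD1, a collagen lysyl hydroxylase, had a ratio of 1.44, SERPINH1, a collagen chaperone, 0.982, and TGFBI, a matrix protein, 0.885. Of 8 measured angiogenic and secreted factors 0 were called, and the list median of 0.42 was -0.12 when cells were thinned before classing. ANGPTL4, a lipase inhibitor, had a ratio of 2.41 and was lower in HTO3+HTO7, at 69.5 against 78.3 CPM. Of 11 measured genes of mitophagy, growth arrest and mTOR restraint, DDIT4, BNIP3L and ERO1A were called higher, against 1.28% of all measured genes. The list median of 0.38 was -0.31 under the stricter cell filter. TXNIP, an inhibitor of glucose uptake in the same list, was lower in 5 of 5 populations at a ratio of 0.776. A further list of 12 measured hypoxia signature genes had a median of 0.47 and 11 ratios above 1, against 3191 of all 6495 measured genes. Its 1 call was lower, for S100A4, a calcium-binding protein of motile cells (0.661).

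**Figure D3:**
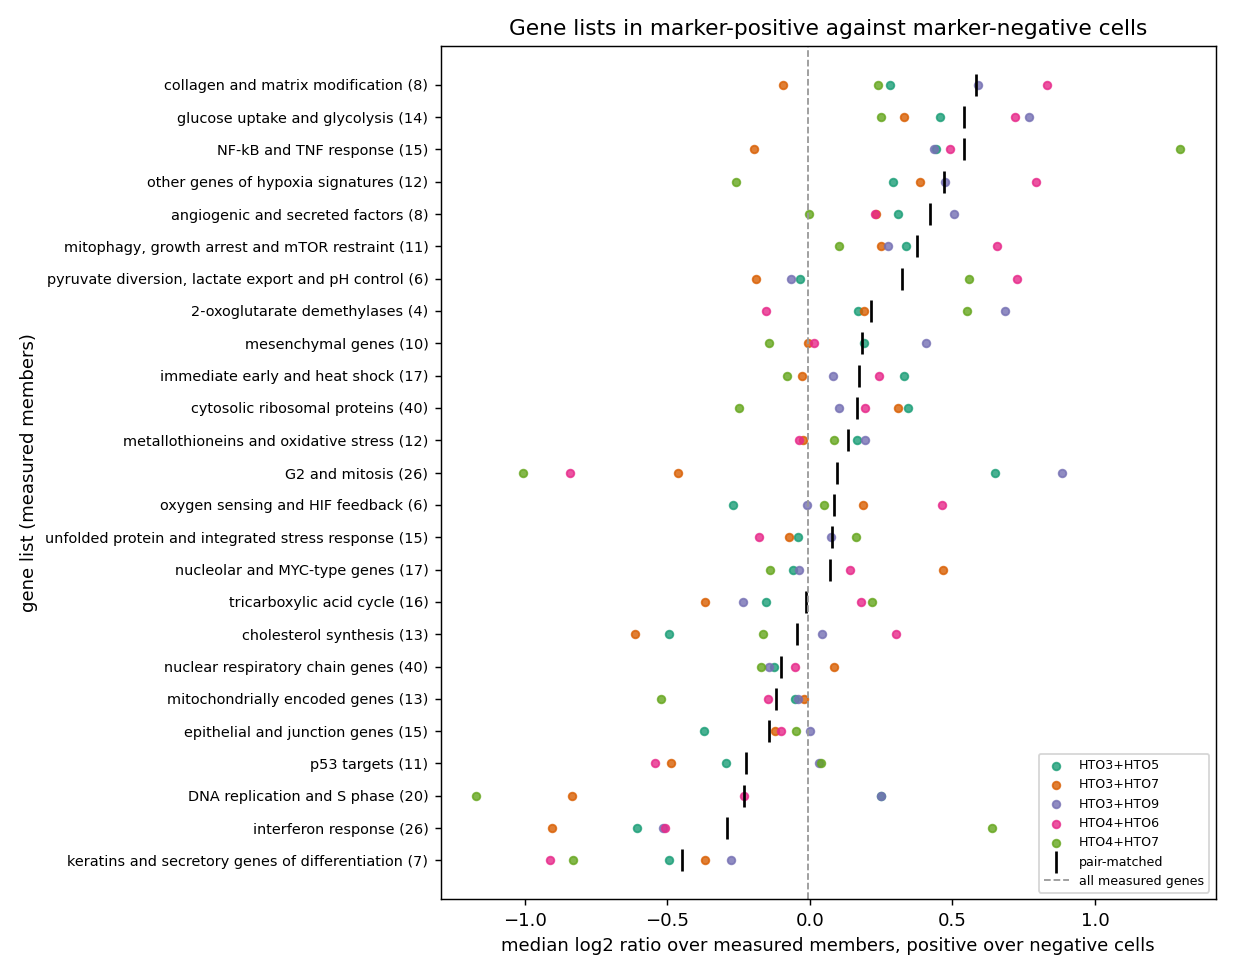
Median log2 ratio of each gene list in marker-positive over marker-negative cells, with points for the 5 populations, a black bar for the population-matched value and a dashed line for all measured genes (-0.01). The glycolysis points all lie right of the line (0.25 to 0.77), while the interferon points lie left of it in 4 populations and right of it in HTO4+HTO7 (0.64).

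Respiration differed less. The 13 mitochondrially encoded genes summed to 132105 CPM in marker-positive and 146397 CPM in marker-negative cells, 0 were called, and the list median was -0.12 with -0.52 in HTO4+HTO7. MT-ATP6, a subunit of ATP synthase, was lower in 5 of 5 populations at a ratio of 0.836. The cell filter capped mitochondrial UMIs at 20% in both classes, and because these UMIs take a large part of each total, all ratios were also formed without them. Nuclear genes of the respiratory chain had a median of -0.10 over 40 measured members, with 1 called lower, SDHD of succinate dehydrogenase, and the tricarboxylic acid cycle list had -0.01 over 16, with FH, fumarate hydratase, called higher.

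The interferon response list was lower in marker-positive cells of 4 populations and higher in HTO4+HTO7. Its median log2 ratio was -0.60, -0.90, -0.51, -0.51 and 0.64, and 3 of 26 measured members had a matched ratio above 1 (matched median -0.29). The opposite sign in HTO4+HTO7 rests on 9 cells and was not tested. The summed list stood at 10010, 9704, 11076, 14336 and 27245 CPM in marker-positive cells and at 15282, 18280, 14949, 21131 and 21218 CPM in marker-negative cells. IFI27, an interferon-induced mitochondrial protein, was at 1409, 1647, 1693, 2777 and 5406 CPM against 3017, 4357, 2812, 5165 and 5021 CPM. Its level was thus lower in 4 populations and close in HTO4+HTO7, so the rule did not call it (ratio 0.619). LY6E, an interferon-induced surface protein, was lower in 5 of 5 populations at 0.692. The called member was GBP4, with 6 UMIs in marker-positive cells, and B2M, the MHC class I light chain, had a ratio of 0.824.

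Per cell, 12 of 70 marker-positive cells (17.1%) lay above the marker-negative interferon median of their population. The class medians over all 5 populations, not matched on population, were 11096 and 18196 CPM. Within the populations they were 10005, 9232, 11191, 15150 and 25881 CPM against 15042, 16905, 14686, 20658 and 22154 CPM. The 3 marker-positive cells richest in interferon genes, at 39069 CPM or more, were all in HTO4+HTO7, and 31 marker-negative cells reached that level. The list median was -0.63 with ADM left out of the markers and 0.12 under the stricter cell filter, the 1 alternative of 30 with a positive value.

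NF-kB and TNF response genes had a list median of 0.54, like glycolysis, but a different spread over cells and populations. The medians by population were 0.44, -0.20, 0.44, 0.49 and 1.30. BIRC3, an inhibitor of apoptosis induced by NF-kB (ratio 2.28), IL32, a cytokine (2.33), and ICAM1, an adhesion molecule (1.78), were called among 15 measured. Of all measured genes 1.28% were called higher. BIRC3 stood at 120.1, 59.5, 199.9, 95.7 and 462 CPM against 92.4, 45.5, 107, 56.2 and 74.9 CPM, and 1 marker-positive cell held 42 of the class's 135 BIRC3 UMIs (31.1%). SAA1, an acute-phase protein, had a ratio of 3.05 and LCN2, an iron-binding secreted protein, 1.69, each higher in some populations and lower in others.

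The 3 marker-positive cells with the highest NF-kB level, between 10164 and 17422 CPM, held 666 of the 2180 list UMIs of their class (30.6%). One was in HTO3+HTO5 and the others in HTO4+HTO7. Without these 3 cells, a choice made after seeing them, the list median was 0.17, IL32 and ICAM1 were no longer called (log2 ratios 1.05 and 0.78), and BIRC3 had a log2 ratio of 0.63. Without the population HTO4+HTO7 the list median was 0.19, and it was -0.12 when cells were thinned to 4000 UMIs before they were classed, which left 23 marker-positive cells. Per cell the medians, pooled without matching on population, were 1683 and 1384 CPM. Of the 70 marker-positive cells 41 (58.6%) lay above the marker-negative median of their population. The same omission of 3 cells left EGLN3 at a log2 ratio of 1.86, PGK1 at 1.13, LDHA at 0.81 and the glycolysis list at 0.55. DDIT4, for which HTO4+HTO7 also had the widest ratio (5.38), moved from 1.21 to 0.99.

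Genes of differentiation and attachment were called in both directions, and 2.36% of all measured genes were called lower. Of the list of keratins and secretory products 7 genes were measured, 3 with a ratio above 1, and the list median was -0.45, with medians below 0 in each population. AGR2, a disulphide isomerase of mucus-secreting cells, was called lower at 0.654. The classes were close for AGR2 in HTO3+HTO7, at 248 against 260 CPM, and farthest apart in HTO4+HTO7, at 56.6 against 286 CPM. A single marker-positive cell held 28.35% of its 127 UMIs, and 15 of 30 alternatives lost the AGR2 call without a change of sign. MUC5AC, a gel-forming mucin, was called lower at 0.558, from 60.1, 49.6, 51.2, 44.7 and 66.04 CPM against 95.04, 99.8, 69.5, 113 and 117 CPM. The epithelial and junction list had 1 call in each direction among 15 measured, 6 ratios above 1 and a median of -0.14. KRT7, a keratin of simple epithelia, was lower (0.622), and WFDC2, a secreted protein abundant in ovarian carcinoma, was higher (1.61), at 109.2, 109.1, 144, 274 and 217 CPM against 81.7, 99.8, 97.3, 123 and 140.2 CPM. FABP4, a fatty acid carrier, had the lowest ratio among called genes with 200 UMIs or more, 0.342. FABP4 was at 16.4, 208, 153, 19.1 and 9.43 CPM against 226, 296, 172, 249 and 234 CPM, so the classes were close in HTO3+HTO9 and far apart in 3 populations, and 1 cell held 29.5% of its 61 UMIs. Under the stricter cell filter its log2 ratio was 1.22, the opposite sign. APOBEC3G, an antiviral cytidine deaminase, had a ratio of 0.414. NPTN, TNC and TIMP3, an adhesion molecule, a matrix glycoprotein and an inhibitor of matrix proteases, were called lower from 15 to 20 UMIs each in the marker-positive class. They were among the 10 lowest called genes with 200 UMIs or more and were grouped by function after their values were seen.

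Cell cycle lists took opposite signs in different populations. The G2 and mitosis list had medians of 0.65, -0.46, 0.88, -0.84 and -1.01, and the S phase list 0.25, -0.83, 0.25, -0.23 and -1.17. MCM5, part of the replicative helicase, was called lower from 6 UMIs, and no other gene of either list was called. Stress of the endoplasmic reticulum, with HSPA5 at a ratio of 1.06 and HSP90B1 at 0.999, had a list median of 0.08 and 0 calls among 15 measured. Cytosolic ribosomal protein genes all had ratios above 1, 40 of 40, with a median of 0.17 that was -0.25 in HTO4+HTO7, and 0 were called. Of all 6495 measured genes 3191 had a ratio above 1.

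Levels were also set against the number of marker UMIs, in bins that were not matched on population. EGLN3 stood at 44.0, 51.6, 55.2, 89.5, 275 and 283 CPM in cells with 0, 1, 2, 3 to 4, 5 to 9 and 10 or more marker UMIs. Cells with 1 or 2 marker UMIs were therefore close to marker-negative cells in EGLN3, and most of its difference lay at 5 or more. DDIT4 climbed more evenly, at 77.9, 107, 118, 198, 222 and 298 CPM. LDHA went from 889.6 CPM at 0 marker UMIs to 1950 CPM at 5 to 9, with 1161 CPM in the last bin of 4 cells. BIRC3 had no such order, at 72.8, 59.9, 92.8, 198, 111 and 253 CPM, and neither did FABP4, at 237.5, 271, 135, 46.9, 169 and 14.9 CPM, or AGR2, at 267, 436, 332, 156, 231 and 29.8 CPM. The NF-kB list was at 2983 CPM at 3 to 4 marker UMIs and 2115 CPM at 5 to 9. The interferon list was at 19033, 18839 and 18863 CPM at 0, 1 and 2 marker UMIs and at 14799, 12350 and 8948 CPM beyond. Over 873 cells thinned to 4000 UMIs, the genes most like the marker sum were ZFAS1, PGK1, FTH1, FTL and LDHA, with Spearman correlations of 0.153 to 0.163. Correlations this weak, in sparse counts of cells from 1 library, are no finding.

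**Figure D4:**
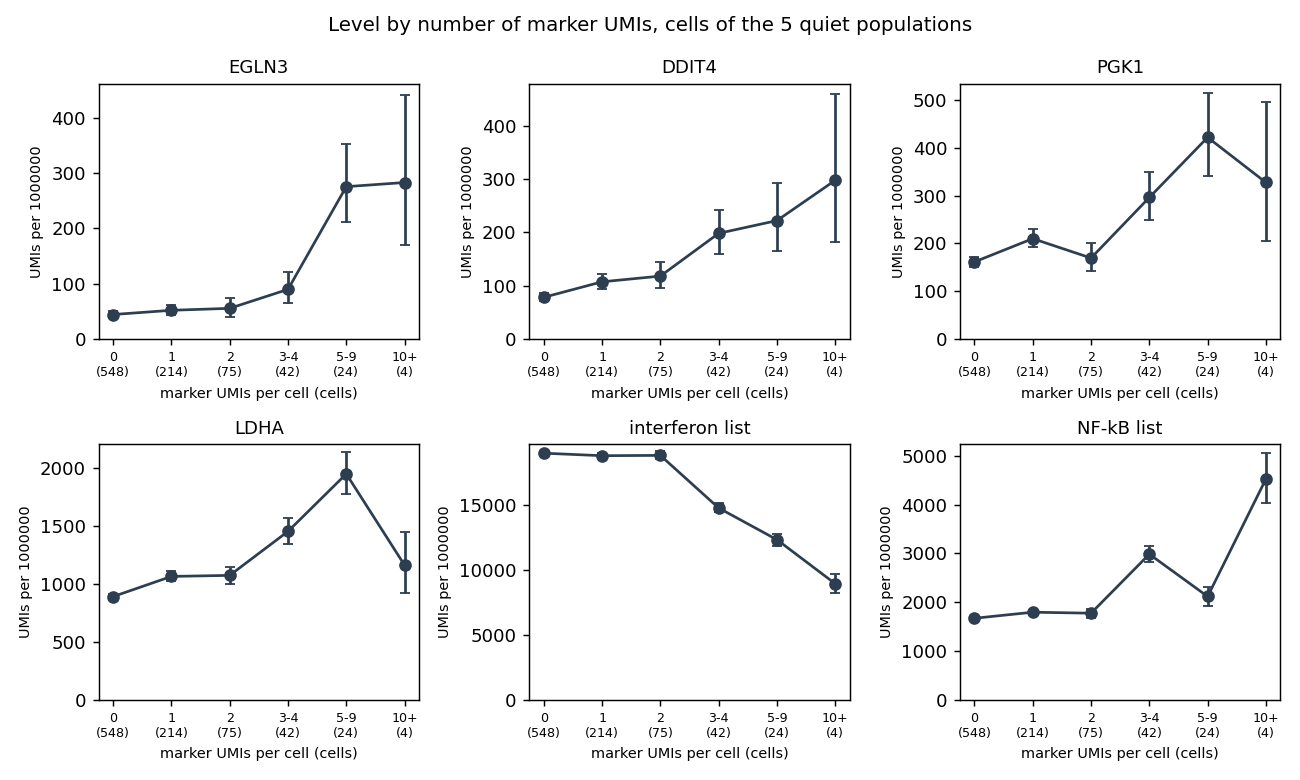
Summed level (UMIs per 1000000, axes from 0) of 4 genes and 2 gene lists by number of marker UMIs in the cell, with the number of cells in brackets and bars for 95% Poisson intervals. EGLN3 went from 44.0 at 0 marker UMIs to 275 at 5 to 9, and the interferon list from 19033 to 12350. The bins are not matched on population.

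The same classes and ratios were formed in the 8 other populations, whose cells had no part in the calls above. Here genes were counted by the size of the ratio alone, with no rule on the number of populations. The other populations held 275 marker-positive and 1120 marker-negative cells. Of the 83 genes called higher in the quiet populations 60 (72.3%) had a ratio above 1 there, against 44.9% of all measured genes, and 25 (30.1%) had a ratio of 1.5 or more, against 1.85%. The number of the 83 that were higher in all 8 populations was 6, against 60 of the 6495 measured genes. Of the 153 genes called lower 101 (66.01%) had a ratio below 1, against 55.1% of all measured genes, and 6 (3.92%) a ratio of 1/1.5 or less, against 1.35%. All cells came from 1 library, so these are separate cells and not a separate experiment.

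Oxygen-response genes also differed in the other cells. DDIT4 was at 3.80, GPI at 3.55, EGLN3 at 3.15, PGK1 at 2.64 and LDHA at 2.06, and GPI, PGK1 and LDHA were higher in 8 of 8 populations. ANGPTL4, which the rule missed in the quiet cells, was at 6.32 and higher in 8 of 8. The glycolysis list had a median log2 ratio of 0.55 with 14 of 14 ratios above 1. The mitophagy and mTOR restraint list had 0.92. UCA1, at 1.71 and higher in 6 of 8, had a smaller ratio than in the quiet cells. The NF-kB list had a median log2 ratio of 0.03 there, with 9 of 15 ratios above 1. BIRC3 was at 1.01, IL32 at 1.06 and TNIP1, a regulator of NF-kB signalling called higher in the quiet cells, at 1.06. ICAM1 was at 1.26 and LCN2 at 1.54, each higher in 7 of 8 populations, while SAA1 was at 0.849. FABP4 was at 1.47 and AGR2 at 1.88, opposite in sign to the quiet cells. The interferon list kept a negative median of -0.17. The differences between quiet and other populations were not tested.

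**Figure D5:**
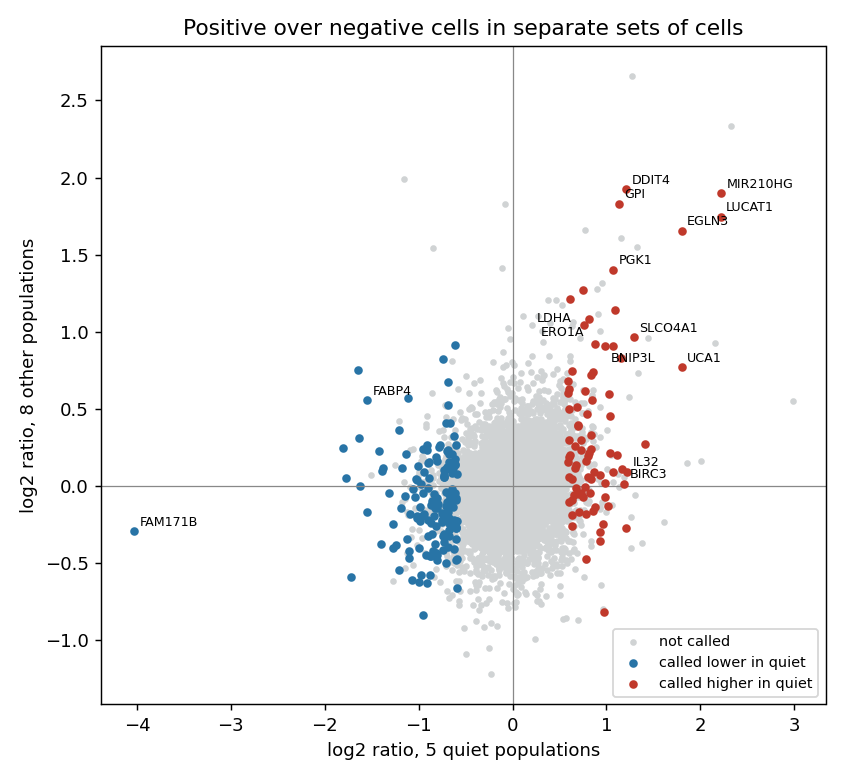
Log2 ratio of marker-positive over marker-negative cells for 6495 genes in the 5 quiet populations (horizontal axis) and in the 8 other populations (vertical axis), with genes called higher in the quiet cells in red and lower in blue. DDIT4, GPI, EGLN3, PGK1 and LDHA lie high on both axes, while BIRC3 and IL32 lie near 0 on the vertical axis and FABP4 above it.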

How the data were processed

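The deposited matrix holds whole-number UMI counts of 36601 genes and 10 hashtags in 9083 barcodes of 1 library, with no normalization by the authors. Per the file headers it was written by Cell Ranger 5.0.1. Version 2.1.1 of that tool, with GRCh38, stands in the submitters' processing notes. No source used here gives the annotation. A population was the pair of the highest 2 of HTO2 to HTO9, the second with at least 20 counts and 4 times the third, which removes multiplets of different populations; doublets within a population cannot be seen. Cells needed 500 genes and at most 20% mitochondrial UMIs.

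Counts were summed per class and population (Python 3.11.15, scipy 1.17.1), totals left out the 5 markers, and ratios were combined over populations by the Mantel-Haenszel formula for genes with 100 UMIs or more. The code was tested on simulated data. Members and 25 gene lists were chosen with earlier results of these data known. Named genes were the markers, the 20 highest and 10 lowest called genes with 200 UMIs or more, the 4 most abundant members of each list and the 10 best correlated with the marker sum; other names in the text were added after their values were seen. Coordinates come from GENCODE 29. The library is 1 sample, so no test across samples was possible. Intervals cover counting error only.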

Additional observations from a re-analysis of the deposited data

Results flagged for a closer look

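Among 68 sets of 5 population values that were checked, 5 held a population whose gap to the nearest other exceeded Dixon's 95% value, and chance flags about 1 in 20. In HTO4+HTO7 the log2 ratio was 2.43 for DDIT4 and 2.63 for BIRC3, each above the other 4 populations. The interferon response list had a median log2 ratio of 0.64 in HTO4+HTO7, above the other 4, and the mitochondrially encoded genes -0.52, below the other 4. SLC16A3 had its lowest log2 ratio, 0.31, in HTO3+HTO7. HTO4+HTO7 accounts for 4 of the 5 and rests on 9 marker-positive cells, of which 2 were among the 3 with the highest NF-kB level.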

How the results depend on the processing

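The 83 higher and 153 lower calls became 265 and 364 without matching on population, which also dropped the rule on 5 of 5 populations. They became 33 and 275 when cells were thinned to 4000 UMIs before they were classed (23 marker-positive cells left). The calls were 49 and 53 with a minimum of 2 marker UMIs and 33 and 385 with 5. They were 11 and 42 under a stricter cell filter (1000 genes, at most 10% mitochondrial UMIs) that left 17 and 45 cells. A looser cell filter (at most 50% mitochondrial UMIs) gave 145 higher calls, and the mean of log2 ratios 47. Gene minimums of 300 UMIs, 30 UMIs and none gave 24 and 36, 165 and 316, and 182 and 583, and a fold of 2 gave 22 and 36. Leaving out 1 population or 1 marker gave 81 to 140 higher and 148 to 304 lower calls. The extremes were 140 without HTO3+HTO7 and 304 without ADM. With 1 population left out, a call needed the same sign only in those that remained. Of the 83 genes 75 remained called in strata of depth, 22 and 13 with minimums of 2 and 5 marker UMIs, 6 and 15 when thinned before and after classing, 2 under the stricter filter, 51 with at least 2 different markers required and 61 without the 3 cells rich in NF-kB genes. The latter 2 settings and totals without mitochondrial genes (72 remained) were chosen after seeing the data. Without ADM, NDRG1, VEGFA, CA9 or ANKRD37 as a marker, 31, 36, 43, 65 and 69 of the 83 remained called. With 1 population left out 48 to 61 remained, and without mitotic cells 27. Of the 153 genes called lower 131 remained in strata of depth and 19 with a minimum of 2 marker UMIs. Thinning before classing left 17 of them, and the stricter filter 2.

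The glycolysis median was 0.95 thinned before classing, 0.29 with 2 marker UMIs and 0.18 under the stricter filter, and between 0.37 and 0.72 elsewhere. The share of marker-positive cells per population, pooled over the 5, was 2.63% thinned, 16.0% and 3.09% with minimums of 2 and 5, 16.8% and 5.11% under the stricter and looser filters. At least 1 setting turned the sign of 8 of the 44 called genes named, 66 of the 92 not called, among them CA12, SAA1, LCN2 and NFKBIA, and 17 of the 25 list medians. Among called genes, signs turned for BIRC3 (-0.16), CALML4 (-0.60), PPAN (-0.69) and HOXA-AS2 (0.32) when thinned before classing; for FABP4 (1.22), TIMP3 (0.68), HOXA-AS2 (0.15) and MUC5AC (0.69) under the stricter filter; for FH (-0.33) and PPAN (-0.65) with 5 marker UMIs; and for PPAN without VEGFA as a marker (-0.0039; leaving out 1 marker or population gave -0.0039 to 0.81). The causes were not tested. No paired analysis was possible because the library is 1 sample with no replicates to pair; matching on population sets classes of cells side by side within it. With 70 marker-positive cells, genes under about 200 UMIs are limited by depth.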

Other observations

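Ferritin and several other genes of the same comparison are given here by their values. FTH1, the ferritin heavy chain, had a ratio of 1.31 in the quiet populations and of 1.32 in the other 8, where it was higher in 8 of 8, and its level in HTO4+HTO7 was 12471 CPM in marker-positive and 6083 CPM in marker-negative cells. Without the 3 cells rich in NF-kB genes its log2 ratio moved from 0.39 to 0.18. FTL, the light chain, had ratios of 1.14 and 1.26. PAEP, a secreted lipocalin, had 113 UMIs in each class and a ratio of 7.90, from 459 CPM in marker-positive cells of HTO3+HTO5 to 0 UMIs in those of both HTO4 populations, and was singled out after its values were seen. WDR54 (1.81), EPB41L4A-AS1 (1.80), GRPEL1 (1.78) and UGCG (1.74) were called higher in the quiet cells, and in the other populations WDR54 was at 1.67, EPB41L4A-AS1 at 1.47, GRPEL1 at 1.18 and UGCG at 1.14.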
